A study of Mus musculus with 2 samples.

Results

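The stretch of mouse chromosome 11 that holds the second cluster of CC chemokine genes, Ccl5, Ccl9, Ccl6, Ccl3 and Ccl4, was examined in a profile of DNA contacts made from the promoter of Ccl2. It spans positions 83028193 to 83848193 in mm9, which is 1.18 to 2 Mb on the higher side of the viewpoint at 81848193. Its members are the 3081 fragment ends in that range whose sequence occurs once in the genome, of 424612 such ends in the Ccl2 library and 921358 in the whole series. The members were chosen by position and copy number and not by their reads. The chemokine genes were compared with the rest of the stretch, and the stretch with the equal range on the lower side, which held 2861 ends.

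The series profiled 2 promoters, Ccl2 and Jun, by 4C-seq, a form of chromosome conformation capture: cross-linked chromatin is digested and religated, and inverse PCR from a viewpoint counts the sequences joined to it. Both libraries were made from primary bone marrow-derived macrophages of C57BL/6 mice, labelled UT for untreated and taken on day 7 of differentiation in medium conditioned by L929 cells. No genotype other than the strain, no age of the mice and no number of pooled animals is stated in the labels used here. There was 1 library per viewpoint, so no test between samples was possible, and 4C-seq of genomic DNA does not show whether the cells expressed macrophage markers. The Ccl2 library held 1248937 reads on unique ends, of which 901507 lay more than 5 kb from the viewpoint.

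As background, CC chemokines are small secreted proteins that attract leukocytes by binding to G protein-coupled receptors. Macrophages are a main source of several of them, and their genes lie in clusters that arose by duplication. Ccl2 belongs to the cluster of monocyte-attracting chemokines, whereas Ccl5, Ccl3 and Ccl4 attract T cells and macrophages among others, and Ccl6 and Ccl9 are related chemokines of rodents. In 4C-seq, contact falls steeply with distance, and at more than a megabase most fragment ends carry no read, so the share of ends with a read is the steadier measure.

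Genes were placed by their distance from Ccl2 in the GRCm38.p6 annotation, although the deposited map is in mm9. This placement was checked with the recognition site of the first enzyme, DpnII (GATC, the same on both strands), because each such site must be a border between fragments of the map. Of 65 distinct GATC sites in the RefSeq promoters within 2500 kb of Ccl2, 65 fell on a fragment border within 16 bp when the start of Ccl2 was put 0.879 kb above the centre of the viewpoint fragment, and 15 of these lay in the stretch. At other shifts of up to 5000 bp the median was 9.23% of sites and the highest 23.1%. Distances between genes and ends therefore refer to one scale, in kb from the viewpoint.

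Promoters of 3 of the 5 chemokine genes, and that of Wfdc18 beside them, are shown because their restriction sites decide where a contact can be read. They are RefSeq sequences of GRCm38.p6 from 250 bases before to 50 after the start, printed along the gene: chr11:83578587-83578886 (minus strand) for Ccl9, chr11:83593038-83593337 (minus) for Ccl6, chr11:83649329-83649628 (minus) for Ccl3 and chr11:83708754-83709053 (plus) for Wfdc18. Capitals mark GATC, the DpnII site, and GTAC, the site of the second enzyme, which is written Csp61 in the labels.
Ccl9: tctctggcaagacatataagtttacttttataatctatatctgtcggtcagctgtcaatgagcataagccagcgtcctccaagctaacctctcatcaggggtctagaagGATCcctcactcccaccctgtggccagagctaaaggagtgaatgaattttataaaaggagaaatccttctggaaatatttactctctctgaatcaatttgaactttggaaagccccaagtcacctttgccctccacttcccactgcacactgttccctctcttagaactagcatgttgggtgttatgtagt
Ccl6: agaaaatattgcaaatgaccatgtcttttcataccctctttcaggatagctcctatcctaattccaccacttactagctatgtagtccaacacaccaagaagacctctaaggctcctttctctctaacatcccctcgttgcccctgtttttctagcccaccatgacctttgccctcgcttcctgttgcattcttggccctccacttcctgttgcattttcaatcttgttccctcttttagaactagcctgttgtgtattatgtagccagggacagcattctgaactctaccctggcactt
Ccl3: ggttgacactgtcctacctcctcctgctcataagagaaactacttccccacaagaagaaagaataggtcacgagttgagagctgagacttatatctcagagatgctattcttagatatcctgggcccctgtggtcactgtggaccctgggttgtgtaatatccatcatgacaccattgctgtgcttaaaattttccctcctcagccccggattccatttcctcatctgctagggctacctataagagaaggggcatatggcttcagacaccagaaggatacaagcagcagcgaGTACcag
Wfdc18: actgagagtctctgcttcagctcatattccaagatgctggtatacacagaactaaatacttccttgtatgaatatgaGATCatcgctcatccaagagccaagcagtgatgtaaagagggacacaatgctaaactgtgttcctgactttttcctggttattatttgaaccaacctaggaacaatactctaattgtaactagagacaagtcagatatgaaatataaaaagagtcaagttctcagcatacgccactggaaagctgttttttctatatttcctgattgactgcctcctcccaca
The Ccl9 and Wfdc18 promoters hold 1 GATC each, the Ccl6 promoter holds neither site and the Ccl3 promoter holds 1 GTAC. Of 32851 promoters in the table, 48.0% hold a GATC and 35.8% a GTAC. The promoters of Ccl6 and Ccl3 thus lie inside single DpnII fragments of 935 and 1139 bp, and their contact can be read only at the borders of these.

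Contact between the Ccl2 promoter and the stretch was sparse, and the intervals of the share of covered ends overlapped between the stretch and the equal range on the lower side. In the stretch 174 of 3081 ends had a read, 5.65% (exact Clopper-Pearson 95% interval 4.86 to 6.52%), against 168 of 2861 ends, 5.87% (5.04 to 6.80%), on the lower side. The background was 1.92% of all ends beyond 5 kb from the viewpoint and 1.47% of those beyond 2000 kb. The stretch held 13827 reads, or 16.9 per kb, and the lower range 12853, or 15.7 per kb, a ratio of 1.08. Per unique end the ratio was 0.999, because the stretch has 3.76 unique ends per kb and the lower range 3.49. The reads of the stretch and of the lower range are 1.53% and 1.43% of the reads beyond 5 kb. The intervals cover the counting of ends in 1 library, not the spread between cultures, and PCR copies without molecular identifiers are not independent molecules.

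The sides differed more between 500 kb and the stretch. From 500 to 1000 kb, 16.1% of ends on the higher side (14.5 to 17.8%) and 2.44% on the lower side (1.82 to 3.20%) had a read, and between 1 and 1.18 Mb 13.8% (10.3 to 17.9%) and 3.0% (1.93 to 4.44%). Coverage on the higher side was thus lower in the stretch than before it, while on the lower side it was higher in the range that mirrors the stretch than in these 2 classes. In the next class, from 2 to 3 Mb, 2.85% (2.34 to 3.44%) and 1.68% (1.28 to 2.16%) of ends were covered, and these intervals did not overlap either. The higher side also had the higher share from 100 to 500 kb, 24.2% (22.1 to 26.3%) against 14.2% (12.6 to 15.9%). From 10000 to 40000 kb the lower side had it, 1.84% (1.76 to 1.92%) against 1.23% (1.16 to 1.29%). From the Jun viewpoint on chromosome 4 the range at the distances of the stretch had a read at 2.16% of ends on the higher side (1.62 to 2.81%) and 3.79% on the lower side (3.07 to 4.63%). The Jun library held 1652054 reads on unique ends against 1248937 in the Ccl2 library, and the shares were not adjusted for depth.

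**Figure D1:**
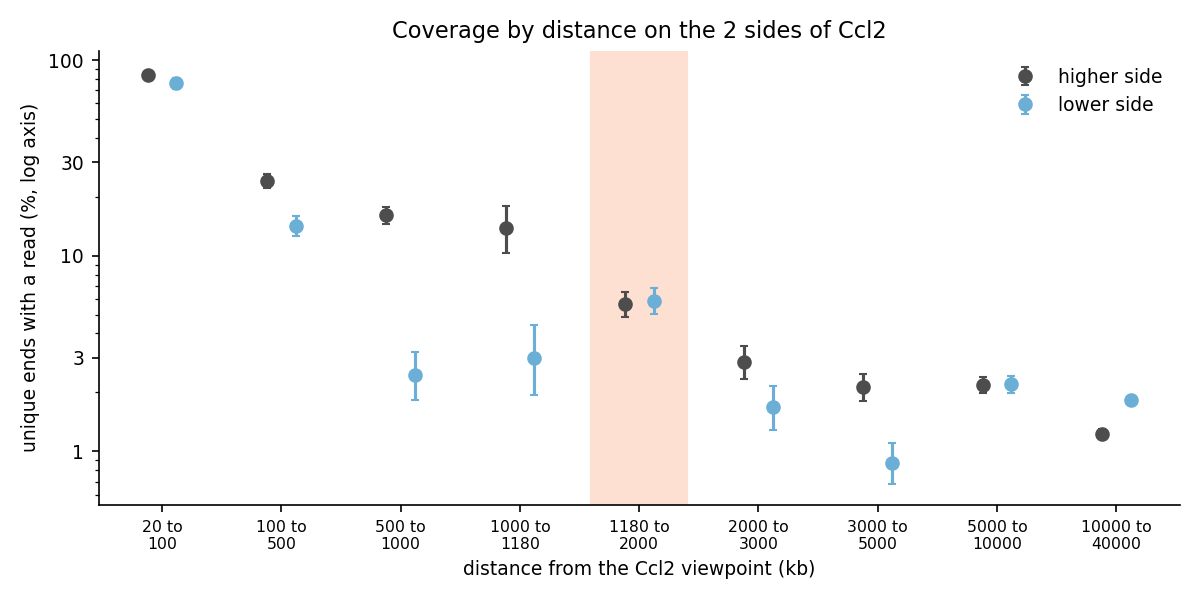
Share of unique fragment ends with a read (percent, log axis) by distance class from the Ccl2 viewpoint (kb) on the higher and the lower side; bars are exact 95% intervals and the shaded class is the stretch and its equal range. The sides stand at 5.65% and 5.87% in the shaded class. Their intervals do not overlap between 0.5 and 1.18 Mb, nor from 100 to 500, 2000 to 3000, 3000 to 5000 and 10000 to 40000 kb. In the last of these classes the lower side has the higher share.

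Coverage was lower towards the far end of the stretch. In 4 parts of equal length, from the nearest to the farthest, 8.24%, 6.81%, 5.46% and 2.41% of ends had a read, and the intervals of the nearest part (6.32 to 10.5%) and the farthest (1.46 to 3.74%) did not overlap. The same parts of the lower side had 6.28%, 7.95%, 4.96% and 4.42%. The 20 kb windows next to the near border had a read at 6 of 44 ends outside it and 7 of 54 inside. At the far border 2 of 84 ends inside and 1 of 77 outside had one.

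Covered ends were spread over nearly the whole stretch. Of 41 windows of 20 kb, 39 had an end with a read, with a median of 4 such ends and a maximum of 11, and the lower side had the same number of windows with a read, the same median and a maximum of 9. The highest share on the higher side was 13.0% (7 of 54 ends, 864 reads) at positions 83028193 to 83048192. Another high window, with 12.1%, lay at 83348193 to 83368192, just beyond Ccl5. The windows at 83448193 to 83468192 (11.5%, over Ccl3 and the annotated lower part of Ccl4), 83388193 to 83408192 (11.3%, over Ccl9 and Ccl6) and 83188193 to 83208192 (11.1%, in Ap2b1) had slightly lower shares. With 52 to 80 ends each, the intervals of these 5 windows overlapped.

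A window without a read lay at 83808193 to 83828192 (0 of 56 ends, which allows a share of up to 5.36%). The longest distance between neighbouring covered ends was 44.5 kb, from 83796033 to 83840513, with 159 uncovered ends. The next was 32.9 kb, from 83052305 to 83085201. On the lower side the longest was 25.3 kb.

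**Figure D2:**
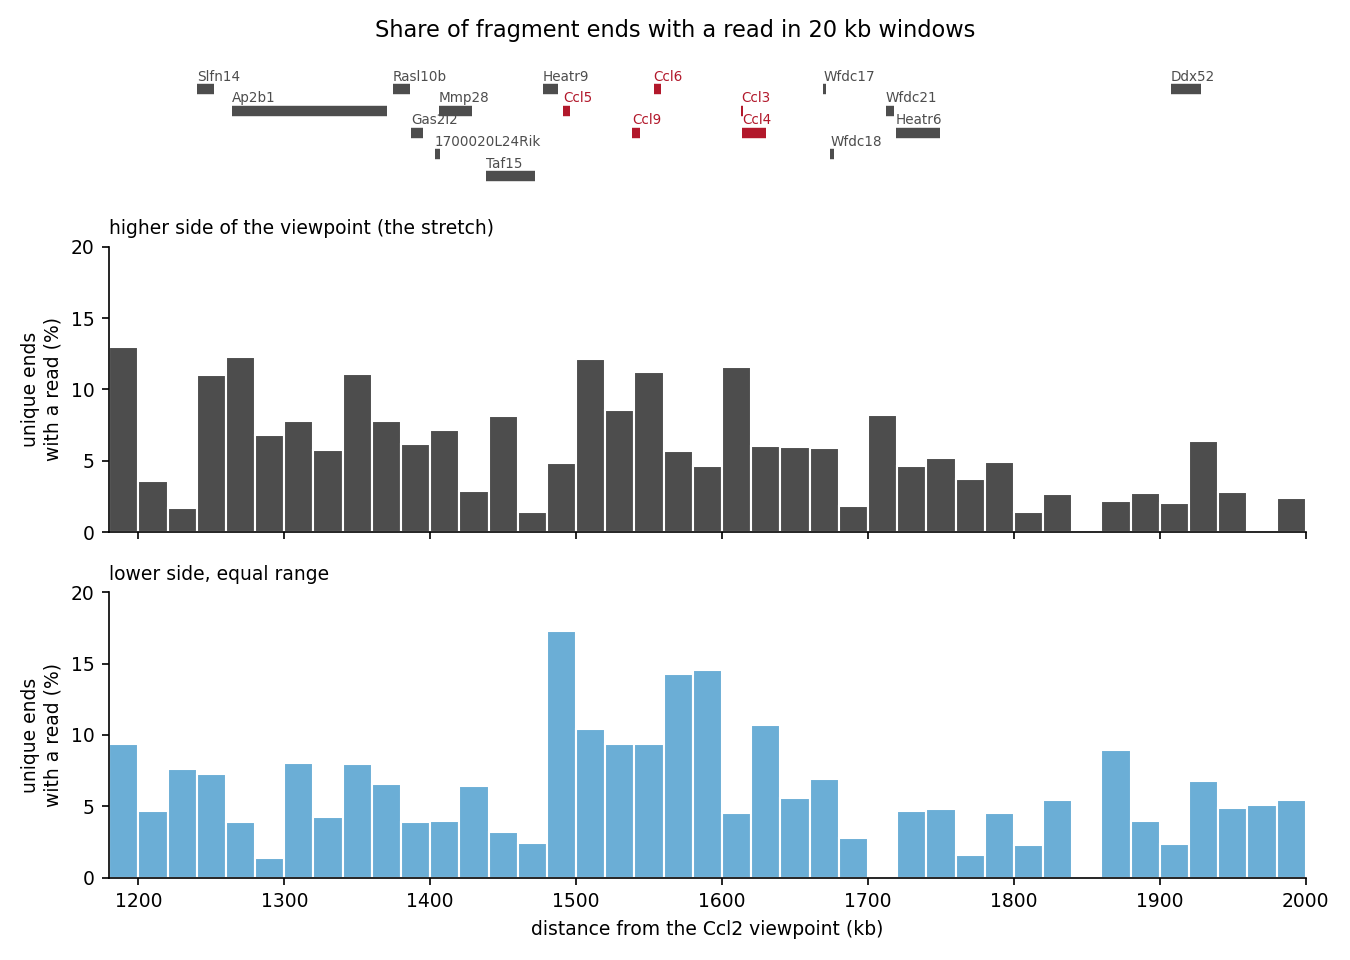
Percentage of unique ends with a read in 20 kb windows against distance from the Ccl2 viewpoint (kb), for the stretch (upper bars) and the equal range on the lower side (lower bars), with the protein-coding genes reported for the stretch above, chemokine genes in red. Bars over the chemokine genes reach 11.5%, and the bar just beyond Ccl5 reaches 12.1%. The highest lower-side bar, at the mirrored distance of Ccl5, reaches 17.3%.

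Around the chemokine genes the share of ends with a read was 1.71 times that of the rest of the stretch, with intervals that only just stood apart. It was not above that of the same distances on the lower side. The 5 genes with 10 kb on each side, 101.75 kb in all, had a read at 34 of 383 ends, 8.88% (6.23 to 12.2%), and the rest of the stretch at 140 of 2698, 5.19% (4.38 to 6.09%). These intervals did not overlap, but they did under 10 of 12 other settings, for instance with 20 kb flanks (7.57% and 5.20%). The share was the higher one at the chemokine genes under 12 of 12. Because coverage fell along the stretch, the rest includes sparser sequence farther from Ccl2 than the chemokine genes. The rest within 200 kb of these genes had 5.55% (4.53 to 6.73%), which overlaps the interval of the chemokine genes. At the mirrored distances on the lower side 36 of 337 ends, 10.7% (7.59 to 14.5%), had a read, and outside them 5.23% (4.39 to 6.17%). The mirrored windows lie over Zfp207, Psmd11, Cdk5r1 and the outer end of Myo1d, genes for a zinc finger protein, a proteasome subunit, an activator of Cdk5 and a class I myosin, none of them a chemokine.

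Reads gave a smaller contrast. The chemokine windows held 2193 reads, 21.6 per kb, against 16.2 per kb in the rest (a ratio of 1.33) and 28.0 per kb in the mirrored windows (a ratio of 0.771). The median covered end had 27.5 reads at the chemokine genes, 56 in the rest and 55.5 in the mirrored windows. Ends with fewer than 10 reads made up 12 of 34 covered ends at the chemokine genes and 17 of 140 in the rest. The ratio of reads rests on few ends, since the 10 highest held 75.7% of the reads at the chemokine genes and 23.1% in the rest.

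The kinds of fragment differed in frequency between the chemokine windows and the rest, and the chemokine share was the higher one on both kinds. Fragments that hold a site of the second enzyme, which can be recircularised as short pieces, made up 48.8% of ends at the chemokine genes and 41.5% in the rest. On such fragments 12.3% of ends (23 of 187, 7.96 to 17.9%) had a read at the chemokine genes and 10.1% (113 of 1119, 8.39 to 12.01%) in the rest, with overlapping intervals. On fragments without the site the shares were 5.61% (11 of 196, 2.83 to 9.82%) and 1.71% (27 of 1579, 1.13 to 2.48%), and these 11 ends held 228 reads. The part of fragment make-up in the contrast was not tested beyond this split.

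**Figure D3:**
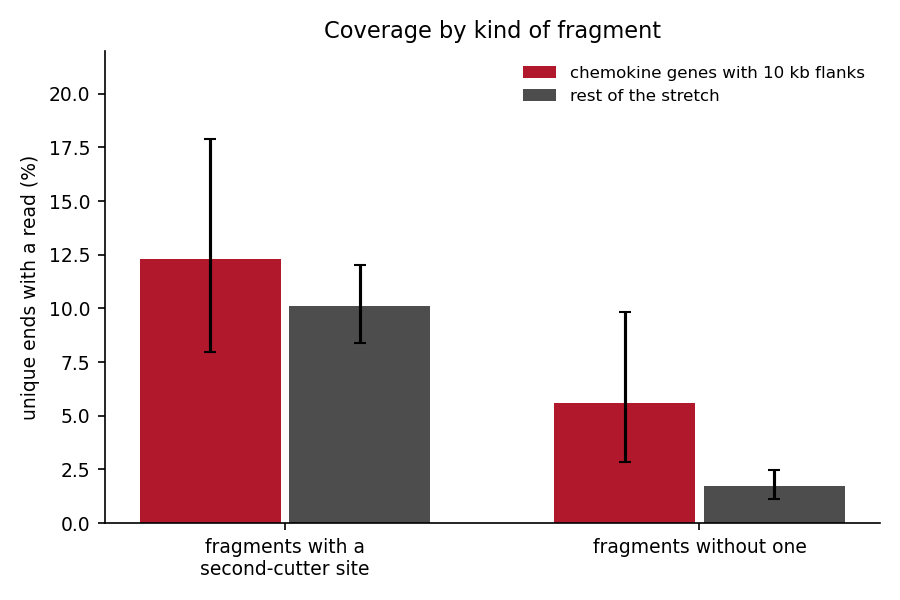
Percentage of unique ends with a read on fragments with and without a site of the second enzyme, at the chemokine genes with 10 kb flanks (red) and in the rest of the stretch (grey); bars start at 0 and error bars are exact 95% intervals. The intervals overlap on fragments with a site (12.3% and 10.1%) and not on fragments without one (5.61% and 1.71%).

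Ccl5 encodes a chemokine that attracts T cells and monocytes. Its body, at 1491.08 to 1495.82 kb, had 13 unique ends and no read, which allows a share of up to 23.1%. With 10 kb flanks 8 of 94 ends had a read, 8.51% (3.75 to 16.1%), with 295 reads in all. Of these ends 1, with 1 read, lay on the near side, in Heatr9, and the other 7 lay beyond the gene at 1499.39 to 1505.18 kb. In order of distance these 7 had 3, 12, 5, 3, 21, 219 and 31 reads, so 1 end, at 83352033, held most of them. Between Ccl5 and Ccl9, 16 of 140 ends had a read, 11.4% (6.68 to 17.9%), the highest share among the gaps between neighbouring chemokine genes, though its interval overlapped the others.

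Ccl9 and Ccl6 encode related chemokines known to bind CCR1. The Ccl9 window had a read at 10 of 109 ends, 9.17% (4.49 to 16.2%), with 633 reads, and its body at 2 of 33 ends, with 75 and 132 reads. The single GATC of the Ccl9 promoter printed above had a read on both of its sides. The end of the 230 bp fragment centred at 83392161 and the facing end of the 708 bp fragment centred at 83392625 carried 13 reads each. Of 136 DpnII sites of the stretch with a read on either side and unique ends on both, 5 had one on both sides, and the counts were equal at 2 of these, the Ccl9 promoter and a site in Wfdc17 with 15 and 15 reads. On the lower side 10 of 118 sites had a read on both sides.

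Ccl6 had the highest body share of the 5 genes, 4 of 22 ends (18.2%, 5.19 to 40.3%), with 242, 46, 211 and 51 reads. Its 550 reads in 5.201 kb were 106 per kb, which rests on 2 ends with over 200 reads. The end at 83401793 with 242 reads was among the 10 highest of the stretch. The 935 bp fragment that carries the Ccl6 promoter had no read at either end. With flanks, Ccl6 had a read at 8 of 92 ends, 8.70% (3.83 to 16.4%).

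Ccl3 and Ccl4 encode the macrophage inflammatory proteins 1 alpha and 1 beta. The Ccl3 body had 8 unique ends and no read (up to 37.5%), and the 1139 bp fragment that carries its promoter had none at either end. The window of Ccl3 had a read at 6 of 63 ends, 9.52% (3.58 to 19.6%), with 447 reads. Ccl4 is annotated over 16.059 kb, which overlaps Ccl3, so their windows share ends. Its body had a read at 6 of 52 ends, 11.5% (4.35 to 23.4%), with 207, 83, 4, 146, 9 and 91 reads in order of distance. With flanks the share was 8.94% (11 of 123, 4.55 to 15.4%).

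**Figure D4:**
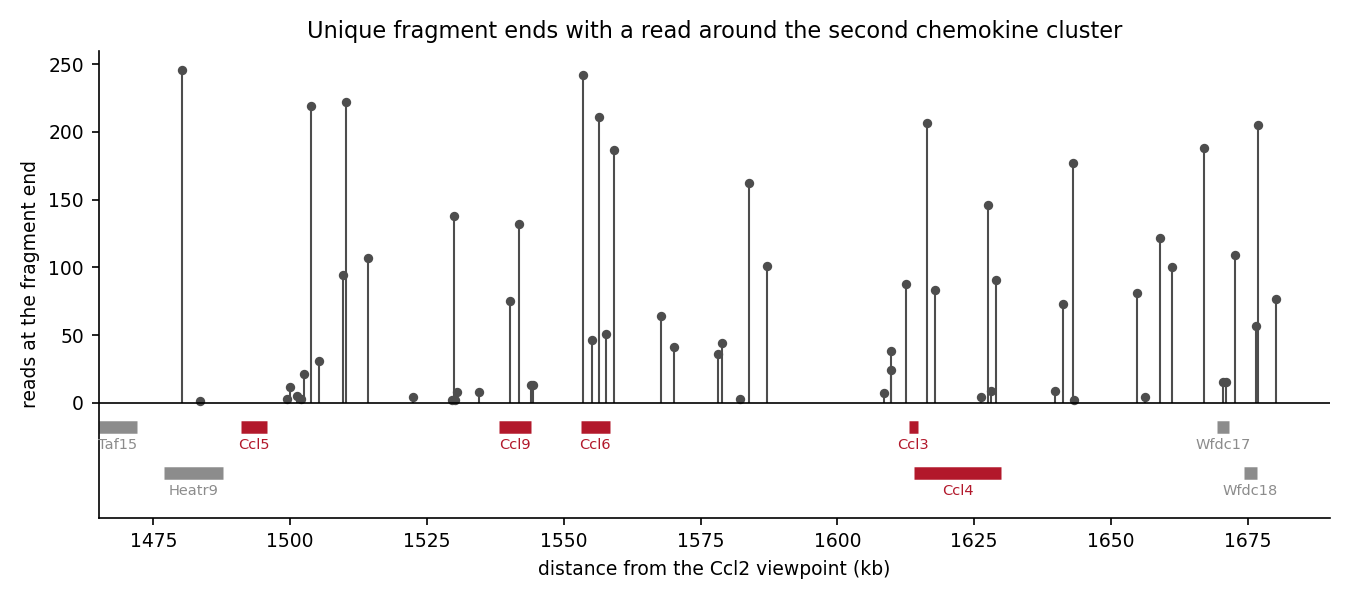
Reads at each unique fragment end with a read against distance from the Ccl2 viewpoint (kb), with gene bodies drawn below the axis, chemokine genes in red. Covered ends lie beyond Ccl5, over Ccl9, Ccl6 and Ccl4 and in the gaps between them, with 242 reads at the highest end of a chemokine gene, in Ccl6.

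With 10 kb flanks the 5 chemokine genes had shares from 8.51 to 9.52%, and all of these intervals overlapped. The windows of Ccl9 and Ccl6, like those of Ccl3 and Ccl4, share ends. Reads in the 5 windows ranged more widely, from 11.9 per kb at Ccl5 to 32.8 at Ccl6. The other 13 protein-coding genes reported here that lie wholly in the stretch had shares from 1.68 to 9.72%, with a median of 6.35%. The highest were Slfn14, of the Schlafen family, with 9.72% (14 of 144 ends, 5.42 to 15.8%), and Ap2b1, which encodes a subunit of the clathrin adaptor AP-2, with 8.76% (41 of 468, 6.36 to 11.7%). They lie nearer to Ccl2 than the chemokine genes. 1700020L24Rik (7.69%), Wfdc21 (7.34%), Heatr6 (6.57%) and Rasl10b (6.52%) followed. These values stand within the intervals of the chemokine genes.

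The lowest share among them was at Heatr9, which lies next to Ccl5 on the near side, with 1.68% (2 of 119 ends, 0.204 to 5.94%). Ddx52, an RNA helicase gene, had 3.93% (7 of 178), Taf15, which encodes an RNA-binding protein, 3.96% (8 of 202), and Mmp28, a secreted metalloproteinase gene, 5.52% (9 of 163). On the lower side at the distances of Heatr9 7 of 99 ends had a read.

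The genes Wfdc17, Wfdc18 and Wfdc21, which encode small secreted proteins with a WAP domain and follow the chemokine genes on the far side, had a read at 16 of 258 ends with 10 kb flanks, 6.20% (3.59 to 9.88%), and 23.7 reads per kb. The ends on both sides of the GATC in the Wfdc18 promoter had no read. The bodies of protein-coding genes that lie wholly in the stretch had a read at 6.37% of ends (93 of 1461, 5.17 to 7.74%). The other sequence of the stretch had one at 5.0% (81 of 1620, 3.99 to 6.18%), and these intervals overlapped. That other sequence takes in any part of a gene that crosses a border of the stretch, so it is not all intergenic.

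**Figure D5:**
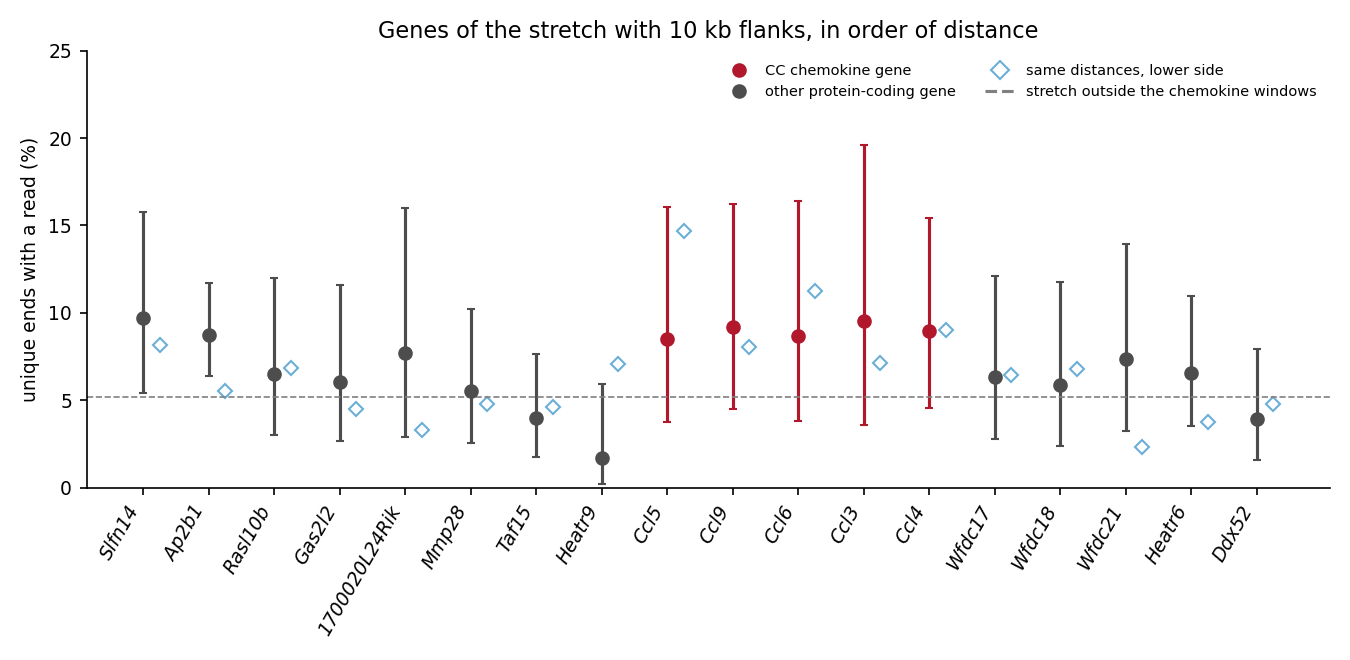
Percentage of unique ends with a read in each protein-coding gene reported for the stretch, with 10 kb flanks, in order of distance, with exact 95% intervals; chemokine genes are red, diamonds give the same distances on the lower side and the dashed line is the stretch outside the chemokine windows. The chemokine genes stand at 8.51 to 9.52%, Slfn14 and Ap2b1 at 9.72% and 8.76%, and Heatr9 at 1.68%.

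Covered ends of the stretch had features in common that the choice of members did not use. Of the 174 covered ends, 136 lay on a fragment with a site of the second enzyme, where 10.4% of ends (8.81 to 12.2%) had a read against 2.14% (1.52 to 2.93%) on other fragments. On the lower side these shares were 9.19% and 3.0%. Longer fragments were covered more often, from 1.82% under 100 bp (11 of 605 ends) to 8.25% at 600 bp or more (59 of 715). The 3′ ends (5.52%) and 5′ ends (5.78%) had overlapping intervals.

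A covered end of the stretch had a median of 53.5 reads and a highest value of 384. Of the 174, 3 had 1 read, 29 had fewer than 10 and 53 had 100 or more. The 10 highest ends held 19.7% of the reads, and they lay along the whole stretch, from 83034881 (384 reads) near its near border to 83844433 (354 reads) near its far border. The other 8 had 219 to 316 reads, at 83137489 in Ap2b1, 83228305 in Rasl10b, 83328385 in Heatr9, 83401793 in Ccl6, 83796033, 83358385, 83770193 in Ddx52 and 83352033. Of these 10 ends 2, those at 83401793 and 83352033, lay within 10 kb of a chemokine gene, as did 34 of all 174 covered ends and 383 of all 3081 unique ends. The unique end next to a covered one had a read too in 9 of 174 cases, 5.17%, near the 5.65% of all ends of the stretch. On the lower side it did in 19 of 168 cases, 11.3%, where 5.87% of all ends were covered.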

How the data were processed

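The deposited values of the Ccl2 and Jun libraries are estimated counts of reads per fragment end in 16 bp bins, not scaled to depth; the unit was read from the values, which pile up near whole numbers. Positions are in mm9, the build in the submitters' processing notes; no aligner is given in the sources used here. According to the labels' protocols chromatin was fixed in 2% formaldehyde for 10 min, and 8 PCRs from 200 ng of template were pooled. The file headers name the 3′ and 5′ end values, the multiplicities and the lengths deposited by the authors, 1 column to the right of their values.

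Counts were rounded, and an end has a read at 0.5 or more. In the stretch 34 unique ends had a value above 0 and under 0.5. They were taken as without a read, and no alternative setting counted them. Ends with multiplicity 1 were used. Lengths to the second enzyme were compared with the fragment length to find fragments with its site. The viewpoint is the fragment with the highest end. Positions are fragment centres. Shares have exact Clopper-Pearson 95% intervals (scipy 1.17.1, Python 3.11.15), and their code was tested on simulated data. The simulation drew each end independently, so it does not show how the intervals hold where covered ends cluster. For a count of 0 the upper limit printed is an approximate one, 3 divided by the number of ends, and not the exact limit. With 1 library per viewpoint no p-value was computed.

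Always named were the 5 chemokine genes, the 3 Wfdc genes, and, of the other genes with at least 20 ends, the 6 highest and 4 lowest by share, with the 6 highest 20 kb windows, the windows without a read and the 10 highest ends. Distances between neighbouring covered ends and sites with a read on both sides were singled out after their values were seen. A few genes and windows that this rule covers are not reported here, and the gene counts and ranks leave those genes out. Members and lists were chosen with earlier results of these data known. Alternatives changed the minimum of reads, the ends used, the flanks, the comparison range and the borders.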

Additional observations from a re-analysis of the deposited data

Results flagged for a closer look

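Multi-copy fragment ends were left out of the values above and carried reads too. In the stretch 45 of 404 such ends had a read, 11.1% (exact 95% interval 8.24 to 14.6%), with 3121 reads in all, above the limit that a count of 0 allows and above the share of unique ends there. On the lower side the share was 33 of 427 ends, 7.73% (5.38 to 10.7%). At the chemokine genes it was 5 of 38, 13.2% (4.41 to 28.1%). These ends share their sequence with other places, so the values do not place a contact.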

How the results depend on the processing

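Of 57 alternative values over 6 results and 14 settings, 40 stayed within the main interval, 16 moved outside it and 1 changed sides. For the ratios of reads per kb the main interval took each read as an independent count. It was 1.27 to 1.39 for the chemokine genes over the rest and 1.05 to 1.10 for the stretch over the lower range. PCR copies are not independent, so these intervals are too narrow and a move outside them means little. On fragments with a second-enzyme site alone, the shares of ends with a read were 10.4% in the stretch, 9.19% on the lower side, 12.3% at the chemokine genes and 10.1% in the rest. Counted by fragments instead of ends they were 9.55%, 9.47%, 15.3% and 8.76%. The chemokine share stayed above that of the rest in 12 of 12 alternatives, but the intervals overlapped in 10, the exceptions being fragments instead of ends and 1 span from Ccl5 to Ccl4. With the start of Ccl2 put at the viewpoint fragment, an alternative added after seeing the data, the shares were 8.29% and 5.28%. The ratio of reads per kb at the chemokine genes over the rest was 1.45 with 5 kb flanks, 1.22 with 20 kb, 2.51 with none and 1.26 with the start of Ccl2 at the viewpoint fragment. Without the 10 highest ends of each set it fell to 0.420; by construction this takes 10 of 34 covered ends from one set and 10 of 140 from the other. The ratio of reads per kb of the stretch over the lower range was 1.14 with multi-copy ends and 1.11 without the 10 highest ends. It was 1.13 with borders 50 kb nearer and 1.03 with borders 50 kb farther. No paired analysis was possible because there was 1 library per viewpoint. The chemokine windows hold only 383 ends, and the smallest difference that these could show was not computed.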
